A study of Mus musculus with 8 samples.

Results

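Proliferating endothelial cells were defined as cells in which at least 1 unique molecular identifier (UMI, the tag of 1 captured transcript) of Pecam1 and of at least 3 of 9 cell-cycle genes was found. The 9 genes were Mki67, Top2a, Birc5, Ube2c, Cenpf, Cdk1, Ccnb2, Nusap1 and Pclaf. Of the 8204 cells in 8 libraries, 7159 carried Pecam1, which encodes the endothelial surface protein CD31, and 434 of those met the rule. The 4 libraries from PBS-injected tumours held 357 of these cells and the 4 libraries from cGAMP-injected tumours held 77.

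The study asked how the endothelium of mouse breast tumours responds to cGAMP, a cyclic dinucleotide that activates the innate immune sensor STING. Spontaneous tumours arose in MMTV-PyMT mice, in which the MMTV promoter drives the polyoma middle T oncogene in the mammary epithelium, and implanted tumours grew from cells of such tumours placed with Matrigel in the mammary fat pad of young adult female FVB mice. PBS alone or 14 µg cGAMP in PBS was injected into the tumour, and live CD45-/CD31+ cells were sorted 3 h later, with 2 mice and 2 libraries a group. All animals were labelled adult and c57bl/6, whereas the methods describe FVB animals for both models, so the strain was not settled. Each of the 4 groups is named here by its tumour model and its injection.

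Endothelial cells in an adult vessel rarely divide, while those of a growing tumour are driven back into the cycle by angiogenic growth factors. A dividing cell copies its DNA in S phase with replication and nucleotide-synthesis enzymes and new histones, and then condenses and separates its chromosomes in G2/M with condensins, kinetochores, a spindle and cytokinesis proteins. Tip cells lead a vessel sprout, stalk cells follow and divide, and arterial cells are a mature state at the other end of the vessel bed.

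The cells carried endothelial markers. Besides Pecam1, 427 of the 434 cells carried at least 3 of the other pan-endothelial genes, counted at full depth. Among these genes are Cdh5, which encodes VE-cadherin, Kdr, the main VEGF receptor, and Egfl7. After thinning to 2000 UMIs, Kdr was found in 61.7% of PBS and 53.9% of cGAMP members, and Egfl7 in 87.1 and 94.7%. In 13 cells with at least 3 epithelial genes and neither Pecam1 nor Cdh5, these shares were 30.8% for Kdr and 46.2% for Egfl7. At least 2 pan-endothelial genes were found in 9 of these 13 cells. Of 12 leukocyte genes, 6 (C1qb, Csf1r, Adgre1, Itgam, Cd3e and Cd79a) were found in none of the 418 members of sufficient depth after each cell was thinned to 2000 UMIs. Ptprc, which encodes CD45, was found in 0.585% of the PBS and 3.95% of the cGAMP members, against 0.149 and 1.42% of the Pecam1+ cells without any of the 9 genes. The myeloid genes Lyz2 and Cd68 were found in 1.75 and 1.46% of the PBS members, against 0.298 and 0.843% of those cells, and in 2.63 and 3.95% of the cGAMP members, against 3.36 and 1.58%. C1qa, S100a8 and Tyrobp were found in 0 to 1.32% of the members of either treatment. Of those 418 cells, 23 carried at least 3 markers of an epithelial, immune, mural, fibroblast or blood list, 12 of them in PBS and 11 in cGAMP libraries, and their part in the results was not tested except by leaving them out. The libraries held 7863535 to 16506086 UMIs, with a median of 2014 UMIs a cell in implanted cGAMP library 1 and of 8803.5 to 13148 in the other 7. A barcode that also occurred in another library was carried by 14 cells, 2 of them members.

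In spontaneous tumours the rule found 65 of 965 and 28 of 601 Pecam1+ cells after PBS, and 20 of 670 and 11 of 693 after cGAMP. In implanted tumours it found 116 of 1000 and 148 of 1097 cells after PBS, and 34 of 1529 and 12 of 604 after cGAMP. Every PBS library thus held more members, as a share of its Pecam1+ cells, than any cGAMP library. The shares were 6.74 and 4.66% in spontaneous PBS, 2.99 and 1.59% in spontaneous cGAMP, 11.6 and 13.5% in implanted PBS, and 2.22 and 1.99% in implanted cGAMP libraries. The group means were 5.70 ± 1.47% and 2.29 ± 0.988% in spontaneous tumours, and 12.5 ± 1.34% and 2.11 ± 0.168% in implanted tumours (SD, n = 2 each), so that the PBS mean was 2.49 times the cGAMP mean in spontaneous and 5.96 times in implanted tumours. These shares come from the values of the rule itself and carry no test. In sorted cells, fewer dividing cells and less cell-cycle RNA in each cell cannot be told apart.

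**Figure D1:**
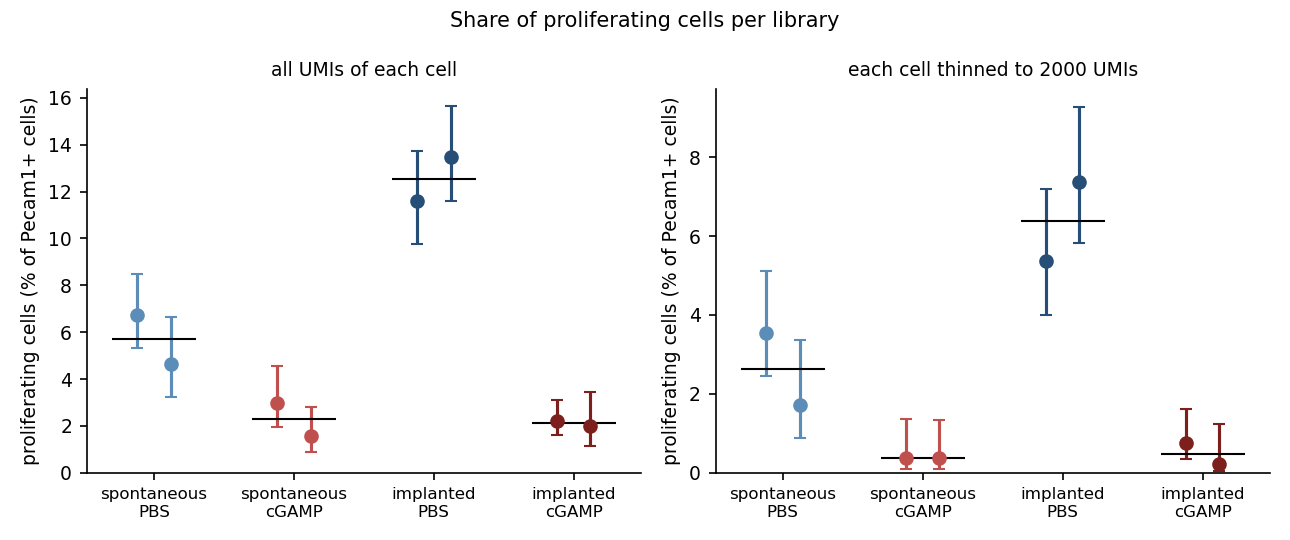
Share of proliferating cells among Pecam1+ cells (%, y axis) in each of the 8 libraries by group (x axis), with all UMIs (left) and after thinning each cell to 2000 UMIs (right). Points are libraries, bars 95% Wilson intervals for counting error and black lines group means; with all UMIs the PBS libraries lie between 4.66 and 13.5% and the cGAMP libraries between 1.59 and 2.99%.

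The depth of a cell bears on the rule, because a deeper cell has more chances to show 3 of the 9 genes. The median member held 18336 to 25987.5 UMIs in the PBS libraries and 21235 to 35619 in the cGAMP libraries, against 7734 to 11649 and 2460 to 12309 in the Pecam1+ cells without any of the 9 genes, called non-dividing cells from here on. The name says only that none of the 9 genes was found at the depth of the cell. Every cell was then thinned to 2000 UMIs, and the 1001 Pecam1+ cells below that depth were left out. Cells that kept no Pecam1 UMI after thinning also fell out, which left 5251 Pecam1+ cells. Among these the rule still found 27, 8, 42 and 66 cells in the PBS libraries but 2, 2, 6 and 1 in the cGAMP libraries. The thinned means were 2.63% against 0.370% in spontaneous and 6.37% against 0.481% in implanted tumours, a ratio of 7.12 and 13.2. Among Pecam1+ cells of 10000 to 40000 UMIs, without thinning, the means were 8.42 ± 2.07% and 2.24 ± 0.679% in spontaneous and 13.0 ± 0.365% and 3.13 ± 1.89% in implanted tumours.

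Members from cGAMP libraries also stood closer to the threshold. The median member carried 7 of the 9 genes after PBS and 3 after cGAMP. Exactly 3 genes were found in 62 of 357 PBS members and in 40 of 77 cGAMP members, and exactly 2, just outside the rule, in a further 201 and 114 Pecam1+ cells. All 9 genes were found in 100 PBS and 6 cGAMP members.

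The 9 genes of the rule differed in how much they contributed. Pclaf, which encodes a partner of the replication clamp PCNA, was found in 84.3% of PBS members and in 66.2% of cGAMP members, and Cdk1, the kinase that drives entry into mitosis, in 82.6% and 81.8%. Nusap1, a spindle protein, was the least often found, in 45.9% and 13.0%. Top2a, the topoisomerase that untangles sister DNA strands, was found in 75.1% and 51.9%, and Mki67, which coats mitotic chromosomes, in 75.6% and 50.6%.

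Mean levels over the member cells, as UMIs scaled to 1000000 a cell (counts per 1000000, CPM), of Top2a were 415 and 321 CPM in spontaneous PBS, 49.8 and 82.9 in spontaneous cGAMP, 427 and 462 in implanted PBS and 134 and 47.6 in implanted cGAMP libraries. For Mki67, Cenpf, a kinetochore protein, Birc5, a survivin of the chromosomal passenger complex, and Nusap1 the cGAMP libraries also lay below all PBS libraries, as did Top2a. Ube2c, the ubiquitin carrier of the anaphase-promoting complex, Cdk1, Ccnb2, a mitotic cyclin, and Pclaf overlapped between treatments, Ube2c with 57.4 to 503 CPM after PBS and 85.0 to 143 CPM after cGAMP. As the rule demanded these transcripts, their levels are given without a test.

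The promoters of these 9 genes are shown in part because the genes rise together in dividing cells. Windows from 250 bases before to 50 bases after the start site, from RefSeq on GRCm38.p6, were searched on both strands for the CHR element (TTTGAA), the CCAAT box (CCAAT) and an E2F-type site (TTTGGCGC, TTTCGCGC or TTTCCCGC). Among the 9 genes, 6 held a CHR element and 7 a CCAAT box, while 20.2 and 41.1% of all 27025 genes in the table did, and 6 held both, against 7.97% of all genes. An E2F-type site was found for Cdk1 and Pclaf and for 2.12% of all genes. In the windows of Birc5 and Nusap1 none of these letters was found, which says nothing of the factors that bind there. Of the 26 replication genes described later, 20 had a window, 10 of which held an E2F-type site and 3 a CHR element. Capitals mark the matches, which may overlap, in the windows of Top2a (chr11:99024140-99024439, minus strand), Ube2c (chr2:164769679-164769978, plus strand), Cdk1 (chr10:69352863-69353162, minus strand) and Pclaf (chr9:65890073-65890372, plus strand), chosen to show CHR elements beside CCAAT boxes in the first 3 and an E2F-type site without a CHR element in the last.
Top2a: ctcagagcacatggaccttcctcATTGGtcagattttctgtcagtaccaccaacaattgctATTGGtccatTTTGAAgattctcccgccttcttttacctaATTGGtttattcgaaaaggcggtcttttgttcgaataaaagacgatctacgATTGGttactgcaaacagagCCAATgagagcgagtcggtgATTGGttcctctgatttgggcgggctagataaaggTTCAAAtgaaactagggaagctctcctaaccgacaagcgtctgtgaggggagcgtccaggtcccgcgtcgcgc
Ube2c: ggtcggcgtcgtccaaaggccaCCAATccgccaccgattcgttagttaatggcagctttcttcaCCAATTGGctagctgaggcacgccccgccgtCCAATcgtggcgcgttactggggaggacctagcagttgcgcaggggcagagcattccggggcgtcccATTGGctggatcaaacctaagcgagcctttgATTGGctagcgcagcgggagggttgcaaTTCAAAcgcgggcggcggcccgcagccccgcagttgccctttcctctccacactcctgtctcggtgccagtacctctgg
Cdk1: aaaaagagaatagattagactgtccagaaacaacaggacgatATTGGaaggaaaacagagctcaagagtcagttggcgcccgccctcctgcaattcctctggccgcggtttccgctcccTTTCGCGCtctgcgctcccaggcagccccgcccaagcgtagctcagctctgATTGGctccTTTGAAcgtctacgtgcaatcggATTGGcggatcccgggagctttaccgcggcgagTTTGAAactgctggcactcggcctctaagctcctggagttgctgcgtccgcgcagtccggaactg
Pclaf: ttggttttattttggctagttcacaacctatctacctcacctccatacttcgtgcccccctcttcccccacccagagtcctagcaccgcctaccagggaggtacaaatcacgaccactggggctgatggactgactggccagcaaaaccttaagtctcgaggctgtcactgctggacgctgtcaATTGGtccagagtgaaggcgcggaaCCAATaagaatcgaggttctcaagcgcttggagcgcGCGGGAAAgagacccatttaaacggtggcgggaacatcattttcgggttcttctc

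Each Pecam1+ cell was assigned a phase from scores over 42 S phase and 54 G2/M genes, where a cell with neither score above 0 is called G1. Of the 9 genes of the rule, 8 are in the G2/M list, so the make-up is partly set by the rule. After PBS, the members called G1, S and G2/M numbered 12, 21 and 32 in spontaneous library 1, 4, 15 and 9 in spontaneous library 2, 17, 42 and 57 in implanted library 1, and 19, 41 and 88 in implanted library 2. After cGAMP they numbered 11, 5 and 4, and 5, 2 and 4 in the spontaneous libraries, and 17, 8 and 9, and 7, 2 and 3 in the implanted libraries. A G1 call thus held for 12.8 to 18.5% of the members in the PBS libraries and for 45.5 to 58.3% in the cGAMP libraries, without overlap.

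By group, G2/M cells were 40.7 ± 12.1% of the members in spontaneous PBS and 54.3 ± 7.30% in implanted PBS libraries, and 28.2 ± 11.6% and 25.7 ± 1.04% in the corresponding cGAMP libraries (SD, n = 2). The G1 call also held for 80.0 to 92.6% of the non-dividing cells, and the S call for 7.19 to 18.2% of them. The G1 share of the members was 37.1 points higher after cGAMP as a mean over both models, 27.1 points when cells were thinned to 2000 UMIs, and only 4.37 points among the 250 PBS and 26 cGAMP members that carried at least 5 of the 9 genes.

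**Figure D2:**
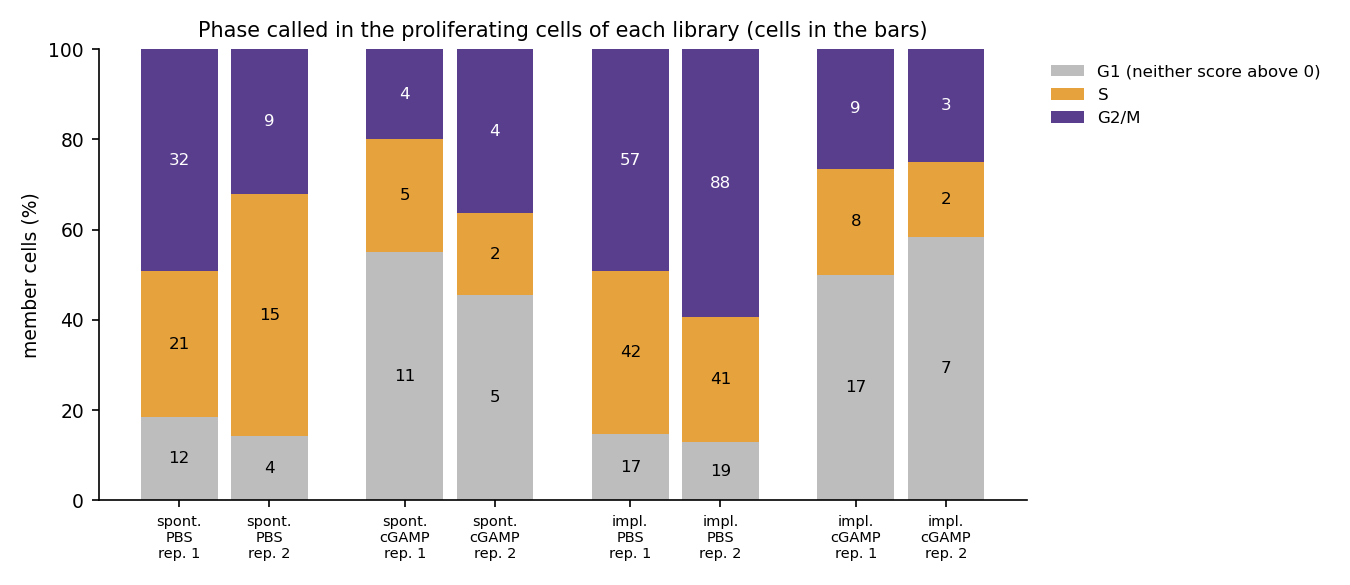
Phase called for the member cells of each library (x axis) as a percentage of its members (y axis), with the number of cells written in each block. Grey is G1 (neither score above 0), orange S and purple G2/M; grey blocks take 12.8 to 18.5% in PBS libraries and 45.5 to 58.3% in cGAMP libraries.

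To count cycling cells without the genes of the rule, a list of 26 genes of replication licensing and forks was used, such as the helicase subunits Mcm2 to Mcm7 and Pcna, none of which is in the rule. At 2000 UMIs, at least 3 of these genes were found in 7.30 and 4.87% of the Pecam1+ cells in spontaneous PBS, 1.85 and 2.65% in spontaneous cGAMP, 7.90 and 8.76% in implanted PBS, and 3.37 and 2.12% in implanted cGAMP libraries. All 4 PBS libraries lay above all 4 cGAMP libraries, and the mean difference over both models was -4.71 points (two-sided exact permutation test within the models, p = 0.0556, the smallest that 36 arrangements allow). This is not below 0.05, a threshold the design could not reach. Permuting the labels over all 8 libraries, without regard to the model, gave an exact permutation p of 0.0286, also the smallest that its 70 arrangements allow. Within the members, the list was found in 150 of 342 PBS cells (43.9%) and 15 of 76 cGAMP cells (19.7%), against 1.59 and 1.98% of the non-dividing cells. Among all Pecam1+ cells outside the rule it was found in 102 of 3013 (3.39%) after PBS and 58 of 2727 (2.13%) after cGAMP. Members thus held a part of the difference, so the test is not independent of the rule.

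The vessel type of the dividing cells was read from 6 lists at 2000 UMIs a cell, beside the non-dividing cells of the same libraries at the same depth. Member and non-member cells were chosen by the rule, so the values are a description. The clearest contrast was arterial: at least 2 of 12 arterial genes were found in 75 of 342 PBS members (21.9%) and in 51.6% of the non-dividing PBS cells. The same order held in each library, with 10 of 64 members against 252 of 533 non-dividing cells and 3 of 27 against 177 of 354 in spontaneous PBS, and 30 of 113 against 262 of 549 and 32 of 138 against 349 of 580 in implanted PBS libraries. After cGAMP the shares were 15.8% of 76 members and 36.7% of the non-dividing cells.

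The arterial genes pointed one way. Gja4 and Gja5, gap junction connexins of arteries, were found in 12.9 and 2.34% of PBS members and in 30.1 and 10.1% of the non-dividing PBS cells. Efnb2, the ephrin of arterial cells, was found in 14.6 against 31.4%, Sema3g, a semaphorin of arterial endothelium, in 6.14 against 19.7%, and Unc5b, a netrin receptor, in 8.77 against 17.3%. All 12 genes of the list were found in a smaller share of PBS members than of non-dividing cells. In mean CPM, 7 of the 9 arterial genes that passed the filter on low values were lower in members in all 8 libraries, and among all 4059 genes that passed it 382 were.

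The other lists differed less. At least 2 immature capillary genes were found in 78.4% of PBS members and 67.8% of the non-dividing PBS cells, at least 2 of the tip-like list in 52.3 and 47.4%, at least 2 of the AQP7+ list in 83.6 and 80.1%, at least 2 of the stalk-like venous list in 36.8 and 49.7%, and at least 2 of the lymphatic list in 3.22 and 6.80%. Genes of one list differed from each other. Apln, the peptide apelin made by sprouting tip cells, was found in 23.4% of PBS members and 6.94% of non-dividing cells, and its receptor gene Aplnr in 42.4 and 26.7%, whereas Pgf, a VEGF family ligand of the tip list, was found in none of the 342 PBS members, which allows a share of up to 0.877% of cells with a UMI at this depth and sets no limit on cells that express it, and in 2.48% of non-dividing cells. Ptn, the growth factor pleiotrophin, was found in 28.4 against 14.1%, and Kcne3, a potassium channel subunit, in 21.3 against 9.77%. Also of the immature capillary list, Bmp2 was found in 0.585 against 4.96% and Insr in 22.5 against 31.4%. Of the tip list, Cxcr4 was found in 2.63 against 9.03% and Esm1 in 5.85 against 10.5%. Dll4 was found in 17.0 against 24.9% and Angpt2 in 4.39 against 7.09%. Nid2, Mcam and Ramp3 of the tip list went the other way, at 26.0, 41.2 and 10.5% against 18.4, 35.9 and 7.14%. After cGAMP, with 76 members, the order turned for Bmp2 (17.1 against 8.54%) and Pgf (7.89 against 6.51%). It also turned for Cxcr4 (9.21 against 8.19%) and Angpt2 (23.7 against 21.4%), and Ptn was at 7.89 against 6.96%. The order held for Apln (17.1 against 7.93%), Aplnr (35.5 against 22.1%) and Kcne3 (19.7 against 11.0%). It also held for Insr (18.4 against 22.6%), Esm1 (1.32 against 6.51%) and Dll4 (22.4 against 27.0%).

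Among the remaining lists, Vwf, the von Willebrand factor of venous endothelium, was found in 8.48% of PBS members and 26.0% of non-dividing cells, and Ackr1, the atypical chemokine receptor of venules, in 7.02 and 13.9%. Fabp5, a fatty acid carrier of the AQP7+ list, was found in 50.6 and 36.9%, and Aqp7 itself in 0.877 and 2.38%. After cGAMP the shares were 14.5 and 12.4% for Vwf, 13.2 and 16.2% for Ackr1, and 46.1 and 28.7% for Fabp5. In 13 cells with at least 3 epithelial genes and neither Pecam1 nor Cdh5, at least 2 arterial genes were found in 30.8% (95% Wilson interval 12.7 to 57.6%), at least 2 tip-like genes in 7.69% (1.37 to 33.3%) and at least 2 immature capillary genes in 23.1% (8.18 to 50.3%). The lymphatic genes Ccl21a and Mmrn1 were each found in 46.2% of these 13 cells, but in 1.75 and 2.34% of PBS members and in 1.98 and 3.87% of non-dividing PBS cells, so the 13 cells gave no measure of free RNA shared by all cells, and the part of free RNA in the vessel-type shares was not determined. The median depth before thinning was 4170 UMIs in these 13 cells, 21840.5 in the members and 10900 in the non-dividing cells.

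**Figure D3:**
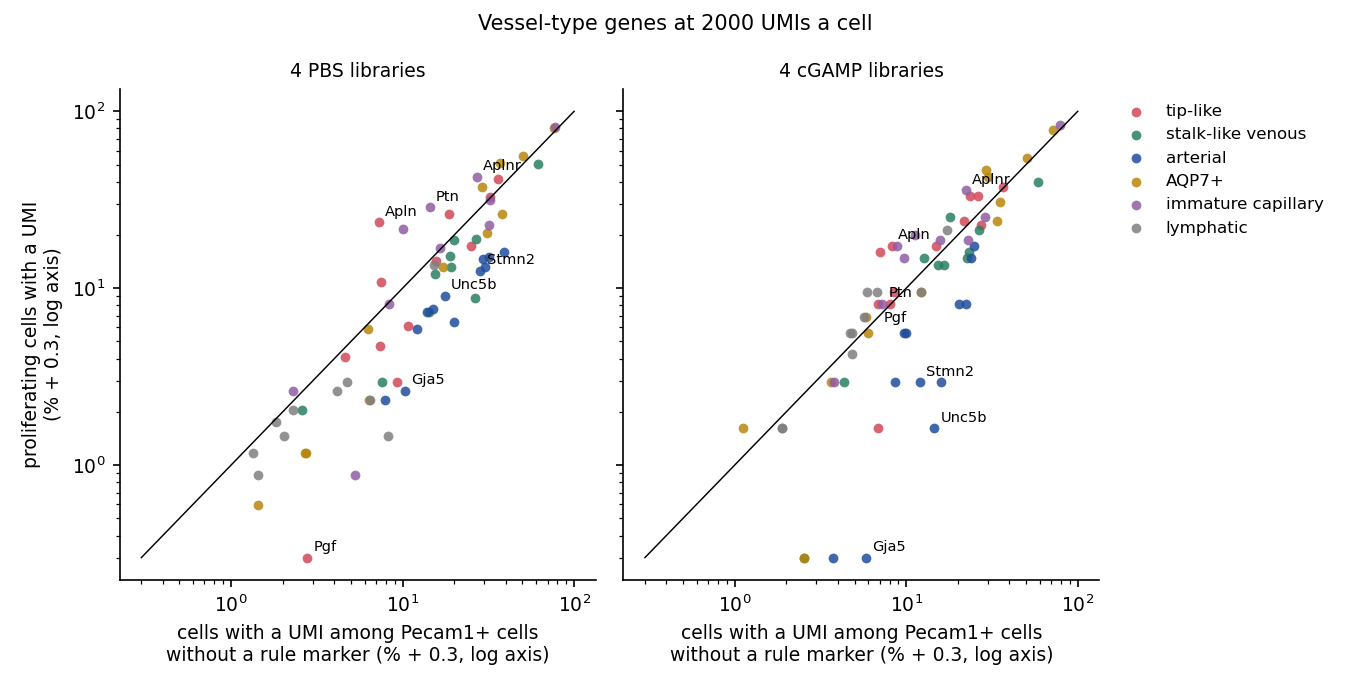
Share of proliferating cells with a UMI of each vessel-type gene (y axis) against the share of non-dividing Pecam1+ cells (x axis) in the 4 PBS (left) and the 4 cGAMP libraries (right), at 2000 UMIs a cell; both log axes show % + 0.3. Points are genes coloured by list and the line marks equal shares; all 12 arterial genes (blue) lie below the line in PBS libraries, while Apln, Ptn and Aplnr lie above it.

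Outside the rule, the genes with the largest ratios of members to non-dividing cells were genes of DNA copying and chromosome separation. Replication-dependent histone genes led, with a log2 ratio of mean CPM of 5.95 for Hist1h2ap and 5.16 for Hist1h2ae as medians over the PBS libraries, followed by Prc1, a spindle midzone protein, at 4.11, Cenpe, a kinetochore motor, at 4.13 and Stmn1, a microtubule regulator, at 3.67. After cGAMP the medians were smaller, at 3.98, 2.98, 2.02, 2.28 and 2.54. Among the genes with lower levels in members were Slc6a6, a taurine transporter, at -2.11, Cxcl12, a chemokine of arterial endothelium, at -2.39, Klf4, a flow-responsive transcription factor, at -1.73 and Edn1, which encodes endothelin-1, at -1.85.

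The response to cGAMP within the members was tested by comparing mean CPM over the member cells of each library, on the log2(CPM + 10) scale, with limma across 4059 genes that reached 50 CPM in at least 2 libraries. A gene is called when its Benjamini-Hochberg adjusted p is below 0.05, and a fold change understates the change of low genes. As a mean over both models 773 genes were called, 19.0% of those tested, of which 338 were higher and 435 lower after cGAMP. Under median-of-ratios scaling the split turned to 425 higher and 280 lower, as the median of all genes moved from -0.10 to 0.02 on the log2 scale. A library's mean rested on 11 to 148 member cells. When all cells with at least 2 markers of another cell type, counted without thinning, were left out, 0 to 24 members a library remained, the 2 cGAMP libraries without any were dropped, each cGAMP group was 1 cell, and limma called no gene (455 had an unadjusted p below 0.05).

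Genes induced by interferon rose in the members after cGAMP. All 26 tested genes of the type I interferon list of 28 were called higher, against 8.33% of all genes tested, with a median log2 change of 3.06, and so were all 26 tested of the 27 genes of interferon-gamma response and antigen presentation, with a median of 2.04, beside -0.10 over all genes tested. A gene can reach the filter through the cGAMP libraries alone, where it is high, so these counts are no count over whole lists. Irf7, the transcription factor that amplifies interferon production, was at 4.84 and 4.79 CPM in spontaneous PBS, 1398 and 1200 in spontaneous cGAMP, 62.2 and 56.1 in implanted PBS, and 1269 and 1367 CPM in implanted cGAMP libraries. The lowest cGAMP library thus lay far above the highest PBS library, and the log2 change was 5.36 ± 0.13 (SE, limma adjusted p = 1.028e-08).

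Ccl5, a T-cell attracting chemokine, changed most, from 0.584 and 2.34 to 2284 and 558 CPM in spontaneous and from 1.59 and 1.33 to 2838 and 835 CPM in implanted tumours (log2 change 6.86 ± 0.45). Isg15, a ubiquitin-like antiviral modifier, rose from 31.9 and 31.0 to 1854 and 1242 CPM and from 244 and 142 to 2306 and 2254 CPM (4.37 ± 0.18). The antiviral genes Rsad2, Ifit3, Isg20 and Ifit1 rose by log2 changes of 4.63 ± 0.38, 4.25 ± 0.27, 4.01 ± 0.22 and 3.98 ± 0.25, and the CXCR3 ligands Cxcl9 and Cxcl10 by 4.10 ± 0.19 and 3.40 ± 0.39. For each of these 8 genes every cGAMP library lay above every PBS library, and the limma adjusted p was at most 0.0002602. Genes were named from the called ones, the largest changes also for lack of overlap, so neither property is a further result. Ifi27, a mitochondrial protein named for interferon, went the other way, from 239 and 188 to 60.0 and 20.0 CPM and from 148 and 144 to 28.2 and 29.1 CPM (-2.14 ± 0.25, limma adjusted p = 0.0002854).

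Isg15 has 3 overlapping matches to the interferon-stimulated response element core (GAAA, any 2 bases and GAAA again, on either strand) in its window on chr4:156200769-156201068 (minus strand), marked here in capitals because its level rose in all cGAMP libraries. The core was found for 12 of the 20 type I interferon genes with a window and for 3.99% of all genes.
Isg15: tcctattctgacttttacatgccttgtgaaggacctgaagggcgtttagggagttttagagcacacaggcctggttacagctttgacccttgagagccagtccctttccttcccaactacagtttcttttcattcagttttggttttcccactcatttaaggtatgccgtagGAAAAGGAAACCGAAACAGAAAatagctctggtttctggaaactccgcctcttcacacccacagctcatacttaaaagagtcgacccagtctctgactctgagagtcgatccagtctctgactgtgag

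Some genes downstream of TNF and NF-kB and of cell death also changed. Of 9 tested genes of the TNF list of 18, 4 were called higher, against 8.33% of all genes tested: the inhibitor genes Nfkbia (0.64 ± 0.12) and Nfkbiz (0.72 ± 0.18), the cytokine Il6 (1.39 ± 0.38) and the monocyte chemokine Ccl2 (3.08 ± 0.71). Ccl2 was uneven, at 618 CPM in one spontaneous cGAMP library and 26.9 CPM in the other, which is below both spontaneous PBS libraries. Of 12 tested apoptosis genes of 21, Casp8 (0.60 ± 0.16), Cflar (0.58 ± 0.15) and Bak1 (0.51 ± 0.16) were called higher and the survival gene Bcl2 lower (-0.92 ± 0.23), against 8.33% higher and 10.7% lower over all genes. Cdkn1a, the CDK inhibitor p21, rose from 130 and 130 to 238 and 158 CPM and from 153 and 132 to 246 and 254 CPM (0.66 ± 0.16, limma adjusted p = 0.01619), and was the only one of 5 tested p53 targets of 15 called. With at least 5 genes of the rule demanded, Cdkn1a was not called and changed by -0.028.

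Many cell-cycle genes outside the rule were lower in the members after cGAMP. Of 104 tested cycle genes, 76 were called lower and none higher, with a median log2 change of -1.25, against 10.7% of all genes called lower. Many of them reach the filter through the PBS libraries alone, where they are high, so these counts are no count over whole lists. Without the filter 49 of 156 were called lower. The cells themselves were chosen by 9 cycle genes, and exactly 3 of these were found in 40 of 77 cGAMP and 62 of 357 PBS members. The fall is therefore not independent of the rule, whose part in it was not tested. Of 18 tested replication genes of 26, 13 were called lower, among them Mcm5 and Mcm6, subunits of the replicative helicase (-1.49 ± 0.37 and -1.37 ± 0.31), Gmnn, the licensing inhibitor geminin (-1.37 ± 0.20), and Fen1, a flap nuclease (-1.34 ± 0.29). Of 9 tested nucleotide supply genes of 15, 8 were called lower, with the ribonucleotide reductase subunits Rrm2 and Rrm1 at -2.32 ± 0.50 and -1.47 ± 0.26 and thymidine kinase Tk1 at -1.75 ± 0.30. Of 15 tested histone genes of 20, 9 were called lower, such as the linker histones Hist1h1b (-2.30 ± 0.56) and Hist1h1d (-2.13 ± 0.44), and 1 higher, Hist1h2bc (0.60 ± 0.17), which was at 87.9 and 87.3 CPM in spontaneous cGAMP against 29.9 and 24.9 in spontaneous PBS, but at 52.6 and 52.8 CPM in implanted cGAMP against 63.8 and 58.7 in implanted PBS libraries, and changed by -0.048 with at least 5 genes of the rule demanded.

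The same held for the machinery of mitosis. Smc2, a condensin core subunit, was at 361 and 267 CPM in spontaneous PBS, 70.9 and 63.6 in spontaneous cGAMP, 260 and 320 in implanted PBS, and 87.4 and 76.3 CPM in implanted cGAMP libraries, with no overlap between treatments (log2 change -1.88 ± 0.15, limma adjusted p = 2.698e-05). Over all genes tested 10.7% were called lower, and mitosis genes, too, can reach the filter through the PBS libraries alone. Their fall is likewise not independent of the rule, which is made up mostly of G2/M genes. Called lower were 11 of 15 tested condensation genes of a list of 16 and 10 of 12 tested kinetochore and checkpoint genes of 22. So were 12 of 16 tested spindle genes of 22 and 8 of 12 tested cytokinesis genes of 16. Among them were Lmnb1, which encodes lamin B1 (-1.88 ± 0.19), Cenpm and Sgo2a of the kinetochore and cohesion protection (-1.82 ± 0.25 and -1.68 ± 0.24), the spindle kinase Aurkb (-2.15 ± 0.29), the motor Kif11 (-2.22 ± 0.45), Prc1 (-2.09 ± 0.29) and the midbody motor Kif23 (-1.86 ± 0.21). Of 8 tested cyclins and CDKs of 18, Ccna2, the S and G2 cyclin (-1.81 ± 0.20), Cks1b (-1.40 ± 0.26) and Ccnd1, the G1 cyclin (-0.46 ± 0.14, limma adjusted p = 0.04978), were called lower.

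The number of cycle genes called depended on which cells counted as members. With at least 5 of the 9 genes demanded, 25 of 118 tested cycle genes were called lower, with a median of -0.78, and among members called S or G2/M 14 of 119 were, with the same median of -0.78. The number of all called genes then fell to 290 and 205, while 23 and 22 of the 25 tested type I interferon genes were called, with a median of 2.79 in the latter.

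**Figure D4:**
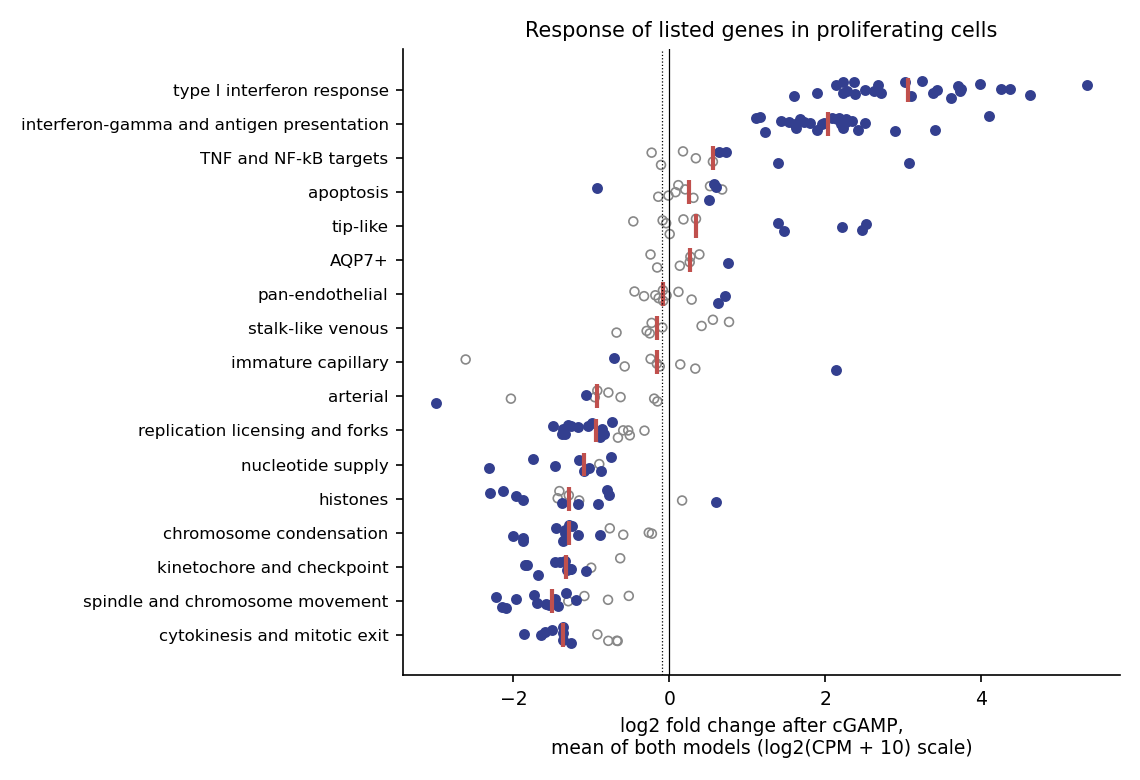
Log2 fold change after cGAMP in member cells as a mean over both models (x axis) for the tested genes of 17 lists (y axis), with the genes of the rule left out. Filled points are called by limma (adjusted p below 0.05), open points are not, red bars are list medians and the dotted line is the median of all 4059 genes (-0.10); both interferon lists lie to the right and the cycle lists to the left.

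Vessel-type genes of the members changed in part. Over all genes tested 8.33% were called higher and 10.7% lower. Here too a gene can reach the filter through the libraries of 1 treatment alone, where it is high. Of 11 tested tip-like genes, 5 were called higher: Angpt2, a Tie2 ligand that loosens vessels (2.53 ± 0.44), Pgf (2.48 ± 0.43), Adm, the vasodilator adrenomedullin (2.22 ± 0.25), Trp53i11 (1.47 ± 0.17) and Cxcr4, a chemokine receptor (1.40 ± 0.24). Angpt2 was uneven, at 221 and 36.2 CPM in spontaneous cGAMP libraries against 37.5 and 39.2 in spontaneous PBS. With at least 5 genes of the rule demanded, 1 of 9 tested tip-like genes was called higher and 1 lower, and among members called S or G2/M none of 9 was called by limma, 5 having an unadjusted p below 0.05. Of 9 tested arterial genes, Stmn2 (-3.00 ± 0.40) and Fbln5, an elastic fibre protein (-1.07 ± 0.19), were called lower. In non-dividing cells, after thinning, Stmn2 (28.1 to 11.7% of cells) and Fbln5 (38.8 to 24.7%) also fell from PBS to cGAMP. Angpt2 (7.09 to 21.4%), Pgf (2.48 to 6.51%), Adm (4.32 to 6.76%) and Trp53i11 (15.3 to 23.2%) rose there as well. Cxcr4 did not (9.03 to 8.19%). Between both responses, compared below, limma called none of 11 arterial genes (0 at an unadjusted p below 0.05). Of 12 tip-like genes it called Cxcr4 alone (6 at an unadjusted p below 0.05). Of the pan-endothelial genes Egfl7 (0.63 ± 0.09) and Cldn5, a tight junction claudin (0.72 ± 0.16), were called higher. None of 8 tested stalk-like venous genes was called by limma, 4 having an unadjusted p below 0.05, and the highest by level, Lrg1, changed by -0.29 ± 0.15.

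In each model alone fewer genes were called, 270 in spontaneous tumours (6.65%, with 164 or 4.04% higher and 106 or 2.61% lower) and 419 in implanted tumours (10.3%, with 229 or 5.64% higher and 190 or 4.68% lower). Among the type I interferon genes 25 and 26 of 26 were called higher, and among the G2/M genes outside the rule 4 and 20 of 35 lower. Both counts come from separate tests. The difference of the responses, implanted minus spontaneous, was called for 8 genes (0.197%), all lower, none of them in a cycle list. By unadjusted p, 304 genes were below 0.05.

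Rbp7, a retinol-binding protein of capillary endothelium, was the only one of these 8 with a called fall in a model. It was at 738 and 534 CPM in spontaneous PBS and 1255 and 584 in spontaneous cGAMP, which overlap, but at 890 and 828 in implanted PBS and 63.0 and 36.4 CPM in implanted cGAMP libraries. The log2 change was 0.44 ± 0.34 in spontaneous and -3.90 ± 0.34 in implanted tumours, a difference of -4.34 ± 0.48 (limma adjusted p = 0.01022). In the non-dividing cells of the implanted tumours Rbp7 was at 659 and 797 CPM after PBS and 152 and 299 CPM after cGAMP.

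The other 7 genes, Cxcl9, Serpina3g, Iigp1, Cd74, Irf7, Zbp1 and Psmb8, had lower levels in spontaneous than in implanted PBS libraries and a called rise in spontaneous tumours. In implanted tumours 5 of them rose, while Serpina3g changed by -0.99 ± 0.37 (limma adjusted p = 0.1244) after 3.31 ± 0.37 in spontaneous tumours. Cxcl9 went from 22.7 and 8.78 to 2627 and 1910 CPM in spontaneous tumours and from 1420 and 1064 to 3733 and 4263 CPM in implanted tumours, with a difference of -4.81 ± 0.38 on the log2 scale (limma adjusted p = 0.00095). Cd74, the invariant chain of MHC class II, was at 10.1 and 14.3 CPM in spontaneous PBS, 129 and 178 in spontaneous cGAMP, 385 and 479 in implanted PBS, and 515 and 603 CPM in implanted cGAMP libraries. Its change was 2.87 ± 0.23 in spontaneous and 0.37 ± 0.23 in implanted tumours (limma adjusted p = 0.3496 for the latter).

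That starting difference was tested in the PBS libraries, which held most members. Of 4059 genes 51 were called between the models (1.26%), all higher in implanted tumours, among them 20 of 26 tested interferon-gamma and antigen presentation genes and 11 of 26 type I interferon genes. Cxcl9 (5.64 ± 0.27), Cd74 (4.31 ± 0.23), Cxcl10 (3.36 ± 0.55) and Serpina3g, a serine protease inhibitor (3.43 ± 0.37), differed most. Vcam1, a leukocyte adhesion molecule, was also called higher (1.92 ± 0.34). No tested gene of the cycle lists was called by limma, 3 of 35 G2/M genes outside the rule and 0 of 28 S phase genes having an unadjusted p below 0.05, these G2/M genes having a median difference of 0.57 and the S phase list of -0.14, while the share of members was 12.5 ± 1.34% in implanted and 5.70 ± 1.47% in spontaneous PBS libraries.

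**Figure D5:**
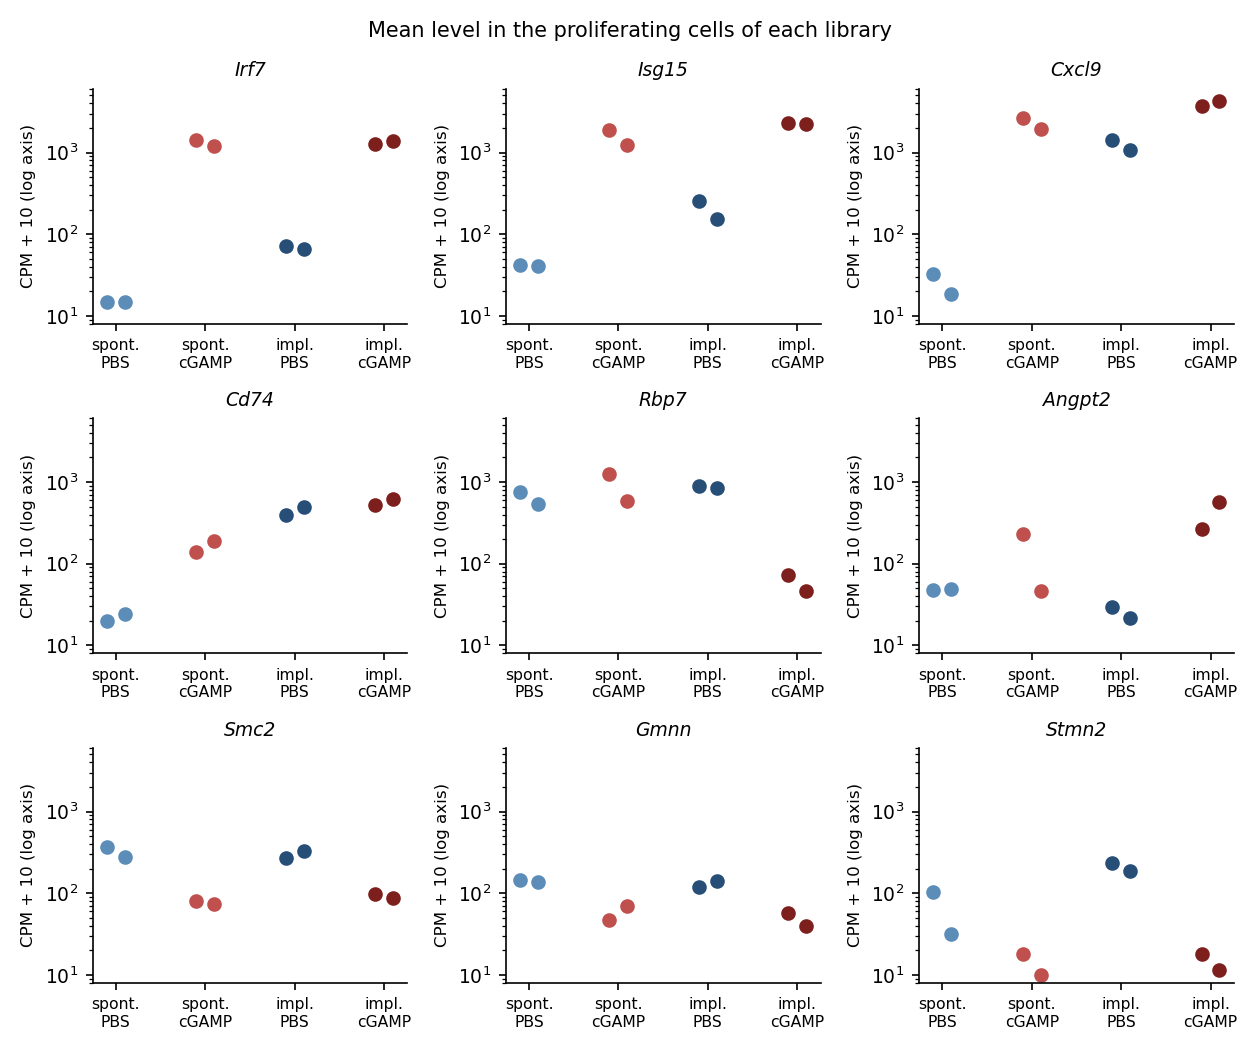
Mean level over the member cells of each library (CPM + 10, log y axis, the same in all panels) by group (x axis) for 9 genes; each point is 1 library. Irf7, Isg15 and Cxcl9 are higher and Smc2, Gmnn and Stmn2 lower in the cGAMP libraries, Cd74 differs already between the PBS groups, and Rbp7 is low in the implanted cGAMP libraries, at 63.0 and 36.4 CPM.

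Finally, the response of the members was compared with that of the non-dividing cells of the same libraries, by limma on the difference of both log2 levels within each library. Of 4422 genes, 73 were called (1.65%), 8 with a higher and 65 with a lower response in members. None of 27 type I interferon genes and none of 26 interferon-gamma genes was called, with 5 and 7 at an unadjusted p below 0.05 in limma and median differences of 0.33 and 0.32 on the log2 scale. Irf7 differed by 0.78 ± 0.20 (limma adjusted p = 0.09686) and Isg15 by 0.89 ± 0.19 (limma adjusted p = 0.05964), which does not show that dividing and non-dividing cells responded alike.

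Among the 8 genes with a higher response in members were the secreted factor Bmp2 (1.51 ± 0.29), Cxcr4 (1.52 ± 0.30), Ifi27l2a (1.33 ± 0.26), AA467197 (1.04 ± 0.21), Lgals3bp, a secreted galectin-binding protein (0.96 ± 0.18), and Phf11b (0.81 ± 0.16). Bmp2 in members went from 1.32 and 0 to 44.9 and 3.77 CPM in spontaneous and from 29.3 and 2.92 to 157 and 164 CPM in implanted tumours, while in non-dividing cells it was at 18.1 to 104 CPM after PBS and 20.2 to 119 CPM after cGAMP. Of the 65 genes with a lower response in members, 31 were in a cycle, nucleotide or histone list, 1 of them a gene of the rule. Non-dividing cells were chosen for lacking the rule's genes, so that a fall of cycle genes could hardly appear in them. Smc2 was at 24.3 to 37.1 CPM in the non-dividing cells of PBS and 21.0 to 29.5 CPM in those of cGAMP libraries, and the 2 responses of Smc2 differed by -1.65 ± 0.24. Further examples were Lmnb1 (-1.94 ± 0.29), Incenp, a chromosomal passenger protein (-1.93 ± 0.27), Tuba1c, an alpha tubulin (-1.97 ± 0.32), Kif23 (-1.80 ± 0.24) and Tipin, a replication fork protector (-1.60 ± 0.22). With at least 5 genes of the rule demanded no gene was called by limma in this comparison, nor among members called S or G2/M, and leaving out either implanted PBS library also left none (395 to 466 genes had an unadjusted p below 0.05 in these settings).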

How the data were processed

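Single-cell RNA-seq libraries (10x Genomics 3′ chemistry) of sorted tumour endothelial cells were analysed. Per the submitters' processing notes the reads were handled with Cell Ranger 3.0.0 and Seurat 3.1.1 on mm10. The authors deposited, per gene and cell, the natural log of 1 plus UMIs scaled to 10000 a cell, and dividing each cell's unlogged values by its smallest gave whole UMIs for 100.0% of values (within 0.01). Per the study's methods, cells with fewer than 500 genes or over 10% mitochondrial UMIs were removed. The deposited cells met both limits (0 cells beyond either), but 1045 carried no Pecam1 UMI, and every library held more cells than the study lists as its final number after Pecam1- clusters were removed. Cells were grouped by the labels.

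CPM were averaged over the member cells of each library and tested as log2(CPM + 10) with limma 3.58.1 (R 4.3.3, empirical Bayes with a trend, Benjamini-Hochberg adjustment, all 4 groups in 1 fit), for genes of at least 50 CPM in at least 2 libraries. Thinning drew 2000 UMIs a cell with a fixed seed, phases came from scanpy 1.11.5, and the replication share was tested by exact permutation of libraries within models. Intervals are 95% Wilson intervals and, like the limits for a count of 0 (3 counts), cover counting error only. A doublet caller marked 15 of 8204 cells (0.183%), which is too few to have worked, so doublets were in effect not removed. Named genes were the largest called changes without overlap, the leading called genes of each list and the vessel-type genes, and Hist1h2bc, Cxcr4 and the model-wise values of Rbp7 and Cd74 were added after their values were seen. Scripts were tested on simulated data. The members and gene lists were chosen with earlier results of these data known. Alternatives were another pseudocount, no filter, median-of-ratios scaling, summed UMIs, other member definitions, a replicate block and leaving out each library.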

Additional observations from a re-analysis of the deposited data

Results flagged for a closer look

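The response to cGAMP in the members differed between the models, by limma's test of the difference, for 8 genes. The differences, implanted minus spontaneous on the log2 scale, were -4.81 for Cxcl9, -4.34 for Rbp7, -4.30 for Serpina3g, -2.61 for Iigp1, -2.50 for Cd74, -2.20 for Irf7, -1.79 for Zbp1 and -1.48 for Psmb8. All 8, Rbp7 included, had higher levels in implanted than in spontaneous PBS libraries, and the part of that starting level in the difference was not tested.

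The response differed between members and non-dividing cells of the same libraries for 73 genes. Among those described, the member response was lower by log2 differences of -1.97 for Tuba1c, -1.94 for Lmnb1, -1.93 for Incenp, -1.80 for Kif23, -1.65 for Smc2 and -1.60 for Tipin. It was higher by 0.81 for Phf11b, 0.96 for Lgals3bp, 1.04 for AA467197, 1.33 for Ifi27l2a, 1.51 for Bmp2 and 1.52 for Cxcr4. Non-dividing cells were chosen for lacking the rule's genes, so that a fall of cycle genes could hardly appear in them. With at least 5 genes of the rule demanded no gene was called by limma, 466 having an unadjusted p below 0.05. The median member held 19929 UMIs in PBS and 28252 in cGAMP libraries, and the part of this depth in the differences was not tested.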

How the results depend on the processing

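With few members in the cGAMP libraries, counts of called genes moved with the choice of cells and libraries. Requiring at least 4 markers, keeping members called S or G2/M, leaving out cells with 3 markers of another cell type at 2000 UMIs, cells of 10000 to 40000 UMIs and non-dividing cells of at least 2000 UMIs were alternatives chosen after seeing the data, as were at least 5 markers for the phases and 1000 UMIs for the vessel markers. The cause of the changes below was not tested.

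For the mean response (773 genes called) the counts were 498 without a filter on low values, 1208 with summed UMIs, 290 at 5 or more markers, 483 at 4 or more and 205 in S or G2/M members. For the spontaneous response (270) they were 162, 533, 98, 168 and 89, and for the implanted response (419) 128, 807, 110, 197 and 35. For the difference of responses (8) they were 0, 48, 0, 5 and 0, with 13 at a pseudocount of 1 CPM and 5 without predicted doublets. Between the PBS models (51) there were 29 without the filter, 12 at 5 or more markers and 2 in S or G2/M members. For members minus non-dividing cells (73) there were 0 without the filter, 247 with summed UMIs, 0 at 5 or more markers, 4 at 4 or more, 0 in S or G2/M members, 26 at a pseudocount of 1 CPM and 42 with median-of-ratios scaling. Where limma called 0 genes in these settings, 256 to 1640 had an unadjusted p below 0.05. Leaving out cells with 3 markers of another type gave 453 in the spontaneous and 635 in the implanted response, 23 for the difference and 177 for members minus non-dividing cells.

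Leaving out cells with 2 markers of another type left 3, 1, 0 and 1 members in the spontaneous and 10, 24, 1 and 0 in the implanted libraries, so that the 2 empty libraries were dropped from the fit and each cGAMP group was a single cell. The counts were then 0 in the mean and spontaneous responses, 214 in the implanted response, 0 for the difference, 237 between PBS models and 0 for members minus non-dividing cells (455, 393, 580 and 474 genes by unadjusted p where 0), and the G1 difference turned to -1.04 points. Log2 changes that turned were Cxcl10 -2.15, Nfkbia -0.96, Casp8 -1.19, Mcm5 0.16 and Trp53i11 -2.44 in the mean response, Cxcl9 3.51 and Cd74 4.44 for the difference, and Bmp2 -0.30, Cxcr4 -0.97, AA467197 -0.71, Lgals3bp -1.61 and Phf11b -3.12 for members minus non-dividing cells. At 5 or more markers Cdkn1a was at -0.028, Hist1h2bc at -0.048 and Cxcr4 at -0.067 (minus non-dividing), and Hist1h2bc was at -0.69 in S or G2/M members and -0.46 at 4 or more markers.

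Leaving out 1 library at a time, with a lone library assumed to vary like the other groups, gave 379 to 898 genes in the mean response (379 without implanted PBS 2, 405 without implanted PBS 1, 503 without spontaneous PBS 1), 143 to 445 in the spontaneous (143 without spontaneous PBS 1, 445 without spontaneous cGAMP 1) and 80 to 616 in the implanted response (80 without implanted PBS 2, 127 without implanted PBS 1, 114 without implanted cGAMP 2). It gave 1 to 16 for the difference (1 without spontaneous PBS 2 or implanted PBS 1, 3 without implanted PBS 2, 4 without implanted cGAMP 2, 5 without spontaneous PBS 1 or implanted cGAMP 1, 16 without spontaneous cGAMP 1), 32 to 65 between PBS models (32 without implanted PBS 1) and 0 to 98 for members minus non-dividing cells (0 without either implanted PBS library, 8 without implanted cGAMP 2, 16 without spontaneous PBS 1, 39 without spontaneous cGAMP 2, 48 without spontaneous PBS 2). Same-numbered libraries did not deviate together (correlations -0.272 to 0.0967), and a replicate block gave 710, 240, 392, 6, 47 and 43 genes in the 6 comparisons and an exact permutation p of 0.125 for the replication share.

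The share of members was lower after cGAMP in every setting run: by -6.93 points as reported, -4.08 thinned to 2000 UMIs, -8.87 with at least 2 markers, -5.55 with at least 5, -5.54 without cells with 2 markers of another type, and -7.45 to -6.41 with 1 library left out. The G1 difference (37.1 points) was 27.1 thinned, 4.37 at 5 or more markers and 34.8 to 39.5 with 1 library left out. The arterial difference of PBS members (-32.2 points) was -20.9 at 1000 UMIs and -35.8 to -29.9 with 1 library left out. The replication share (-4.71 points) gave p = 0.0286, the smallest possible, when permuted over all libraries by the exact permutation test, and -5.32 to -4.10 points with 1 library left out. Of 77 called values of named genes, 70 stayed called at a pseudocount of 1 CPM, 40 without the filter and 73 with median-of-ratios scaling. Of those with a value, 41 of 76 stayed called at 4 or more markers, 29 of 75 at 5 or more, 25 of 75 in S or G2/M members, 0 of 58 without cells with 2 markers of another type and 44 to 70 with 1 library left out. Leaving aside the settings on markers of other cell types, 22 stayed called throughout.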
